A study of Penicillium oxalicum with 6 samples.

Results

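The auxiliary activity (AA) redox enzyme genes of *Penicillium oxalicum*, a cellulase- and amylase-secreting filamentous fungus, were described in RNA-seq libraries of the engineered strain GXUR001 and its parental strain TE4-10. Members were genes with an AA family, and no carbohydrate esterase family, in the annotation beside the study's list of differentially expressed genes. The part of that list used here (1998 genes) covers only IDs from POX_a to POX_d, so AA genes with other IDs are not among the members. In it 32 genes fitted and the AA9 gene POX_b02315 was set aside, which left 31 genes of 11159 rows in each file. These are 3 genes of AA1, 1 of AA2, 11 of AA3, 8 annotated with both AA3 and AA8, 3 of AA5 and 5 of AA7. Entry into that list rested on a p-value under 0.05 between the same strains. The fold changes and p-values of the list were not used here. Strain differences of the members are therefore a description, with no test.

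Auxiliary activities are the redox partners of the hydrolases that break down plant cell walls. Family AA1 holds multicopper oxidases such as laccases, and AA2 holds haem peroxidases of the type that attacks lignin. Family AA3 holds flavin enzymes that oxidise sugars and alcohols, among them cellobiose dehydrogenase, glucose oxidase, aryl-alcohol oxidase and alcohol oxidase, and AA8 is an iron reductase (cytochrome) domain found beside the flavin domain of cellobiose dehydrogenase. Copper radical oxidases such as galactose oxidase and glyoxal oxidase form AA5, and flavin oxidases of oligosaccharides form AA7. Many of these enzymes make or use hydrogen peroxide, and some pass electrons to the lytic polysaccharide monooxygenases of families AA9 and AA13, which cut cellulose and starch. A family label is given by sequence and need not match the reaction of a given protein, and 27 of the 31 genes carried no function beyond hypothetical protein.

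Both strains carry a deletion of *PoxKu70*, overexpress the glucoamylase gene *PoxGA15A* under the cellulose-inducible promoter of *PoxEgCel5B*, and descend from rounds of mutagenesis with ethyl methanesulfonate, gamma rays and plasma. In GXUR001 the regulatory gene *PoxCxrC* is deleted in addition and the amylase regulator gene *PoxAmyR* (POX_f08097) is overexpressed, whereas the labels give the genotype of TE4-10 as WT. The tables used here do not pair *PoxCxrC* with an ID, so its deletion was not checked. The deletion and the overexpression occur in the same strain and cannot be told apart. Spores from plates kept for 4 days at 28 °C were grown in glucose medium for 24 h, and the mycelia were moved to induction medium for 24 h. The paper names wheat bran plus Avicel (microcrystalline cellulose) as the carbon sources of that medium, whereas the labels name raw starch only. The study made 3 replicates per strain. The values here are of TE4-10 replicates 1 and 3 (n = 2) and GXUR001 replicates 1 to 3 (n = 3), with TE4-10 replicate 2 not analysed.

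The deposited values are FPKM (fragment counts corrected for gene length and library size), which compare genes per unit of length. They summed to between 1218691 and 1295493 per library, and the files do not give the number of reads behind them. From the steps between low FPKM values, a GXUR001 library was 1.05 to 1.09 times as deep as a TE4-10 library. To put libraries on a common scale, the FPKM of a library were divided by the median, over genes, of their ratios to the geometric means across libraries (TE4-10 1.145 and 1.099, GXUR001 0.875, 0.917 and 0.991). Strain differences are log2(rescaled FPKM + 1) in GXUR001 minus TE4-10, with the standard error (SE) from limma fitted to the 9636 genes whose mean FPKM reached 1, and they understate the change of genes with low FPKM. *PoxAmyR* had FPKM values of 62.8 and 66.7 in TE4-10 against 90.6, 84.1 and 74.3 in GXUR001, so the overexpressed gene was higher in every GXUR001 library. The log2 difference (± SE) of *PoxAmyR* was 0.62 ± 0.16, with a limma Benjamini-Hochberg adjusted p of 0.049. In FPKM as deposited it was 0.35, with an adjusted p of 0.079 by limma. Actin (POX_c04656) differed by -0.08 ± 0.14, and by -0.35 in FPKM as deposited. In mycelium, fewer cells that transcribe a gene and less RNA per cell cannot be told apart.

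The 31 genes together had less transcript in GXUR001. The summed FPKM was 2923 in TE4-10 replicate 1 and 2996 in replicate 3, whereas the GXUR001 libraries reached 1739, 1832 and 1935. The strains did not overlap, and the TE4-10 mean was 1.61 times the GXUR001 mean. After rescaling the sums were 2553 and 2726 in TE4-10 against 1988, 1999 and 1952 in GXUR001, a ratio of 1.33. Of all deposited FPKM, the genes made up 0.229% and 0.246% in TE4-10 and between 0.142% and 0.149% in GXUR001. The AA3 gene POX_d05776 alone held 32.0% and 32.5% of the summed FPKM in TE4-10 and 23.6%, 25.3% and 29.3% in GXUR001. Without it the deposited sums were 1988 and 2022 against 1329, 1368 and 1369, a ratio of 1.48. The rescaled sums without it were 1736 and 1840 against 1519, 1492 and 1381. All these sums leave out the AA9 gene POX_b02315, whose mean rescaled FPKM was 1503 in TE4-10 and 2443 in GXUR001. They do not stand for all AA transcript.

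**Figure D1:**
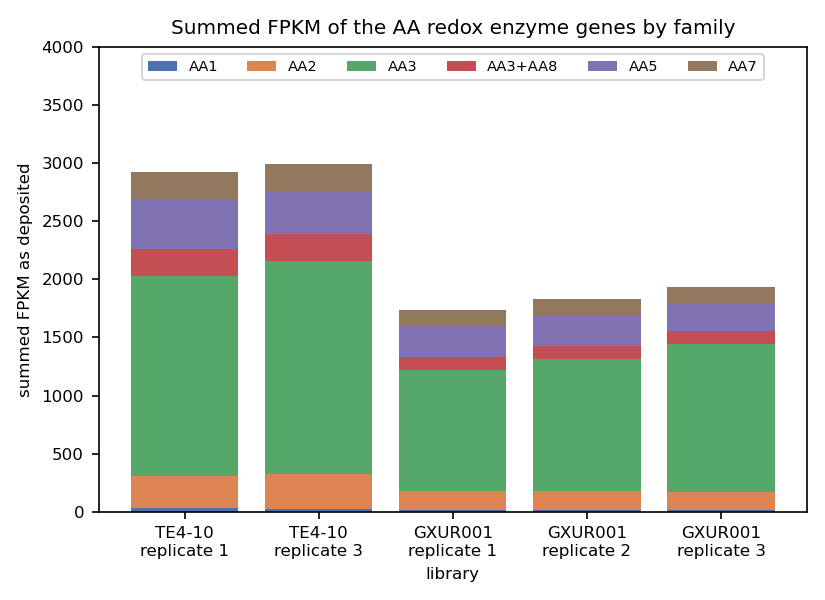
Summed FPKM, as deposited, of the 31 AA redox enzyme genes in each of 5 libraries, stacked by family. The TE4-10 bars reach 2923 and 2996 and the GXUR001 bars 1739 to 1935, and AA3 genes make up most of each bar.

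The 31 genes differed widely in level. The mean FPKM over the 5 libraries exceeded 100 in 6 genes, lay between 10 and 100 in 15 and was below 10 in 10, and it ranged from 1.56 for POX_c04251 (AA7) to 670 for POX_d05776. All 31 genes passed the minimum mean FPKM of 1. In TE4-10, 13 of the genes were above the median of the 9822 annotated genes and 4 were in the top decile. Those 4 were POX_d05776 (AA3), POX_a01697 (AA5), POX_b02889 (AA3) and POX_d05548 (AA2). By rank of mean FPKM, POX_d05776 was gene 198 in TE4-10 and gene 391 in GXUR001.

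**Figure D2:**
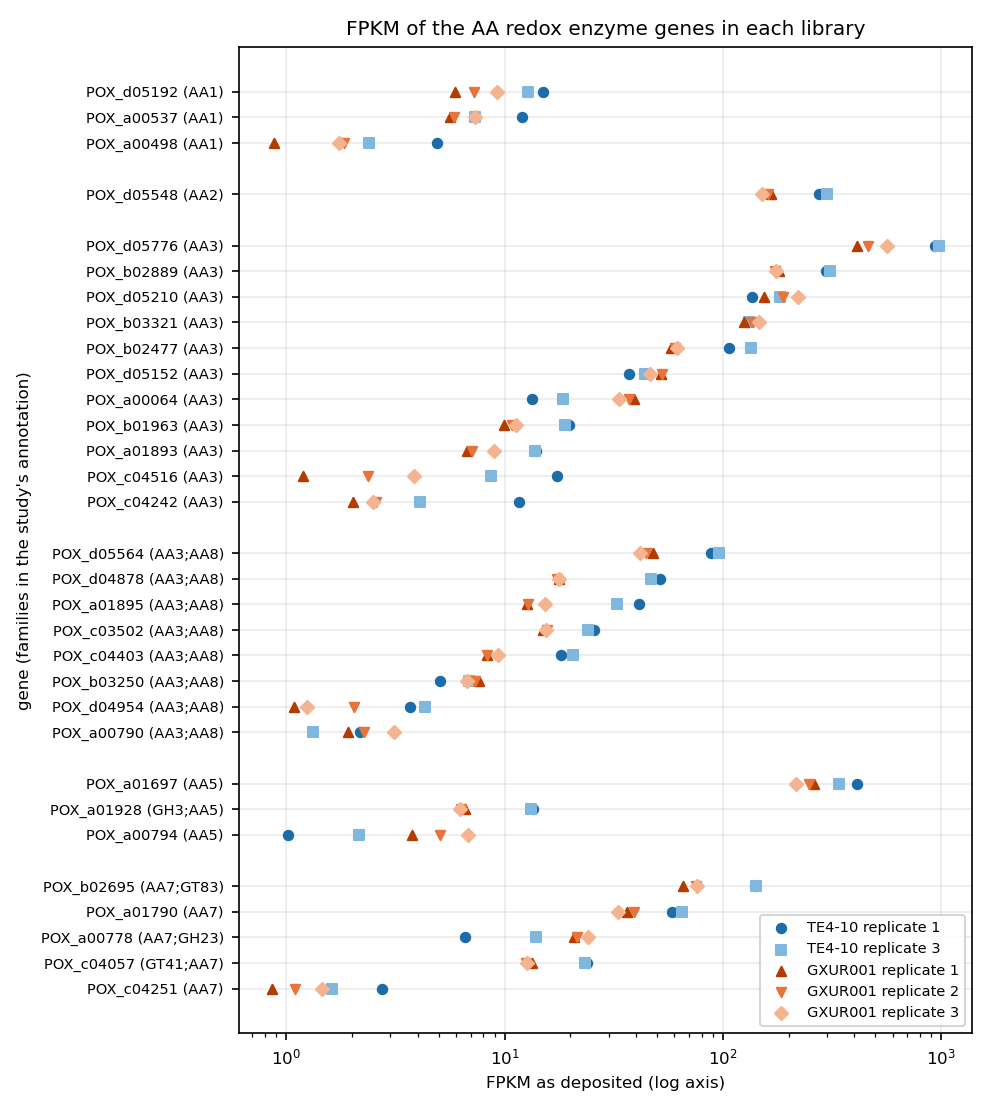
FPKM as deposited (log axis) of the 31 AA redox enzyme genes, grouped by family, with 1 point per library (TE4-10 blue, GXUR001 orange). Most genes have both TE4-10 points to the right of all GXUR001 points, and POX_a00064, POX_a00778, POX_a00794 and POX_d05152 have them to the left.

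Relative to the median gene, 23 of the 31 genes were lower in GXUR001 and 8 were higher. The median log2 difference was -0.55, against 0.00 over all 9636 genes tested. The middle 50% of the genes lay between -0.72 and 0.02, against -0.27 and 0.33 over all genes. Over all genes 17.8% were called by limma at a Benjamini-Hochberg adjusted p under 0.05 (9.74% higher and 8.08% lower), and 53.1% had rescaled FPKM that did not overlap between the strains. Of the 31 genes, 4 were called higher and 15 lower, and 30 did not overlap (8 higher and 22 lower). Nothing is read from these counts, because the genes had been listed for this difference.

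None of the 31 genes changed sign under the scalings tried, but overlap between the strains depended on the scale. In FPKM as deposited, 23 genes were lower in every GXUR001 library than in both TE4-10 libraries, 4 were higher and 4 overlapped. The 4 that overlapped (POX_b03321, POX_b03250, POX_a00790 and POX_d05210) were higher without overlap after rescaling. Of all genes in the part of the study's list used here, 55.9% of the 1976 tested were lower in GXUR001 with a median of -0.28, and 74.2% of the AA genes were. Glycosyltransferase genes of that list, which build glycans, had a median of -0.34 over 41 genes. The medians of glycoside hydrolases (80 genes) and carbohydrate esterases (30 genes), which cut polysaccharides and their side groups, were 0.32 and 0.29. Genes went both ways, with 42 glycoside hydrolases higher and 38 lower, and 17 carbohydrate esterases higher and 13 lower. Of the glycosyltransferases, 14 were higher and 27 lower. Because these genes were listed for differing, the median of such a split does not describe its genes as a whole.

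**Figure D3:**
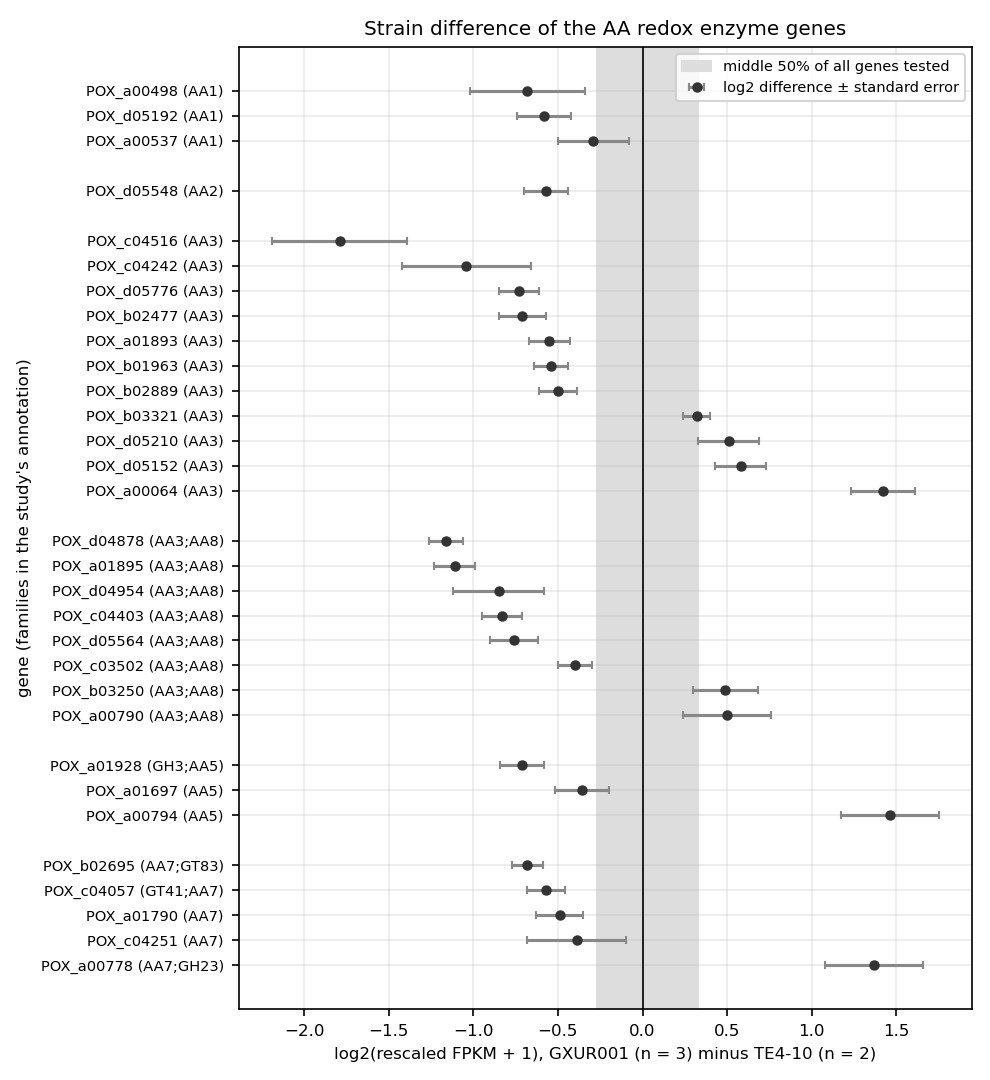
Log2 difference (GXUR001 minus TE4-10, rescaled FPKM + 1) of the 31 AA redox enzyme genes with its standard error, grouped by family. The grey band holds the middle 50% of all genes tested, from -0.27 to 0.33, and all 23 lower genes lie to its left.

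The 3 AA1 genes, all annotated as hypothetical proteins, were low in abundance and lower in GXUR001, with a median log2 difference of -0.58. POX_d05192, the most abundant, had FPKM values of 15.0 and 12.8 in TE4-10 against 5.92, 7.24 and 9.23 in GXUR001, with no overlap (-0.58 ± 0.16). POX_a00498 had 4.92 and 2.40 in TE4-10 against 0.88, 1.84 and 1.75 in GXUR001. Its TE4-10 libraries differed 2.05 times from each other, and its log2 difference of -0.68 ± 0.34 was -0.32 without TE4-10 replicate 1. POX_a00537, at 12.1 and 7.31 against 5.60, 5.87 and 7.30, was the only one of the 31 genes whose rescaled values overlapped. Its log2 difference of -0.29 ± 0.21 was the smallest among the lower genes, and it was 0.01 without TE4-10 replicate 1.

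The AA2 gene POX_d05548, of a haem peroxidase family and annotated as a hypothetical protein, was abundant in both strains. Its FPKM was 276 and 299.8 in TE4-10 against 167, 162 and 152 in GXUR001. All GXUR001 values were below both TE4-10 values, and the log2 difference was -0.57 ± 0.13.

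The AA3 genes held both the most abundant of the 31 genes and the largest negative difference. POX_d05776 had FPKM values of 935 and 973 in TE4-10 against 409.9, 464 and 566 in GXUR001, with no overlap and a log2 difference of -0.73 ± 0.12. POX_b02889, annotated as a UDP-galactopyranose mutase, had 296 and 309 against 181, 174 and 175 (-0.50 ± 0.11). That flavin enzyme makes the UDP-galactofuranose of fungal cell walls and is not known as a secreted oxidase. POX_b02477 (-0.71 ± 0.14), POX_a01893 (-0.55 ± 0.12) and POX_b01963 (-0.54 ± 0.10) were lower in every GXUR001 library as well.

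The largest negative difference among the 31 genes was that of POX_c04516 (AA3), named OxaD in the study's annotation. OxaD of *P. oxalicum* is a flavin enzyme that oxidises roquefortine C to a nitrone on the way to the alkaloid oxaline. Its FPKM was 17.4 and 8.64 in TE4-10 against 1.20, 2.36 and 3.84 in GXUR001. The strains did not overlap, but the libraries within each strain were far apart, 2.01 times in TE4-10 and 3.20 times in GXUR001. The log2 difference was -1.79 ± 0.40, which became -1.35 without TE4-10 replicate 1 and -2.22 without replicate 3. POX_c04242 had 11.6 and 4.11 in TE4-10 against 2.02, 2.57 and 2.50 in GXUR001. Its log2 difference of -1.04 ± 0.38 was -0.42 without TE4-10 replicate 1.

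A group of 4 AA3 genes was higher in GXUR001. POX_a00064 had FPKM values of 13.4 and 18.6 in TE4-10 against 39.1, 37.1 and 33.4 in GXUR001, more than any TE4-10 value in each library, with a log2 difference of 1.42 ± 0.19. POX_d05152 had 37.1 and 44.1 against 52.1, 52.7 and 46.6 (0.58 ± 0.15). Its strains did not overlap in FPKM as deposited either. POX_d05210, at 136 and 183 against 154, 189 and 221, overlapped as deposited and not after rescaling (0.51 ± 0.18). POX_b03321 likewise overlapped as deposited, with 132 and 131 against 125, 136 and 147, and its log2 difference of 0.32 ± 0.08 was the smallest among the higher genes. With POX_a00537 at -0.29 it marks the inner edge of the listed genes. AA genes that the list leaves out are not annotated in the tables used here, so no values just outside it are given.

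The 8 genes with an AA3 and an AA8 annotation, the pairing known from cellobiose dehydrogenase, had a median log2 difference of -0.79, and 6 of them were lower in GXUR001. POX_d04878 had FPKM values of 51.6 and 46.8 in TE4-10 against 17.7, 17.4 and 17.7 in GXUR001. The GXUR001 libraries were within 1.02 times of each other, and the log2 difference of -1.16 ± 0.10 was -1.13 and -1.20 with either TE4-10 library left out. POX_a01895 had 41.3 and 32.8 against 12.6, 12.8 and 15.4, with no overlap (-1.11 ± 0.12). POX_d04954, the least abundant of the 6, had 3.70 and 4.31 against 1.09, 2.04 and 1.25 (-0.85 ± 0.27).

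The most abundant gene of this pair of annotations, POX_d05564, had FPKM values of 88.4 and 95.7 in TE4-10 against 47.7, 44.3 and 41.6 in GXUR001, with no overlap and a log2 difference of -0.76 ± 0.14. POX_c04403 (-0.83 ± 0.12) and POX_c03502 (-0.40 ± 0.10) were lower with no overlap as well. The 2 higher genes, POX_b03250 and POX_a00790, were low in abundance. POX_b03250 had 5.08 and 6.88 against 7.67, 7.35 and 6.75, and POX_a00790 had 2.17 and 1.32 against 1.91, 2.26 and 3.12. Both overlapped as deposited and not after rescaling, with log2 differences of 0.49 ± 0.19 and 0.50 ± 0.26.

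Among the copper radical oxidase (AA5) genes, POX_a01697 was the most abundant and differed least. Its FPKM was 413 and 341 in TE4-10 against 261, 249 and 217 in GXUR001, without overlap, and the log2 difference was -0.36 ± 0.16. POX_a01928 is annotated as a putative beta-xylosidase of GH3, a family that removes single sugars from xylan or cellulose fragments, and carries AA5 as a second family. It had 13.5 and 13.2 against 6.57, 6.34 and 6.22, with replicates within 1.06 times of each other and a log2 difference of -0.71 ± 0.13. POX_a00794 is marked as a Zn2Cys6 zinc finger protein, a class of fungal transcription factors, beside its AA5 annotation. It had the largest positive difference of the 31 genes at a low level, with 1.02 and 2.15 in TE4-10 against 3.77, 5.09 and 6.80 in GXUR001. Every GXUR001 library lay above both TE4-10 libraries, and the log2 difference of 1.46 ± 0.29 was 1.12 without TE4-10 replicate 1 and 1.77 without replicate 3.

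Of the 5 genes of the oligosaccharide oxidase family AA7, 4 were lower in GXUR001. POX_b02695, annotated as a putative Myb DNA-binding protein with AA7 and the glycosyltransferase family GT83, was the most abundant, with FPKM values of 140.6 and 141.3 in TE4-10 against 65.6, 75.7 and 76.2 in GXUR001. The strains were well separated, and the log2 difference was -0.68 ± 0.09. POX_c04057, which also carries GT41, the family of protein O-GlcNAc transferases, had 23.9 and 23.3 against 13.4, 12.5 and 12.7 (-0.57 ± 0.11). POX_a01790 (-0.49 ± 0.14) and POX_c04251 (-0.39 ± 0.29) were lower without overlap, and POX_c04251 was below 1 FPKM (0.86) in GXUR001 replicate 1.

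The AA7 gene POX_a00778, which also carries the lysozyme-type family GH23, was higher in GXUR001. Its FPKM was 6.62 and 13.9 in TE4-10 against 20.9, 21.4 and 24.1 in GXUR001. The GXUR001 libraries were close together and above both TE4-10 libraries, which differed 2.10 times. The log2 difference of 1.37 ± 0.29 was 0.86 without TE4-10 replicate 1 and 1.87 without replicate 3.

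The spread between replicates differed little from that of all genes. The median absolute log2 difference between the TE4-10 libraries was 0.22 both for the 31 genes and for all genes tested, and the median log2 range of the GXUR001 libraries was 0.29 against 0.24. The strain difference was larger than the range within either strain in 26 of the 31 genes and in 3958 of all 9636 genes tested. Nothing is read from these 2 counts, because the 31 genes had been listed for their strain difference. The TE4-10 libraries were more than 2 times apart in 5 genes, of which POX_c04516, POX_c04242 and POX_a00498 were higher in replicate 1 and POX_a00778 and POX_a00794 in replicate 3. The strain differences of these 5 moved most with the choice of TE4-10 library, and all 31 genes except POX_a00537 kept their sign with either library.

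**Figure D4:**
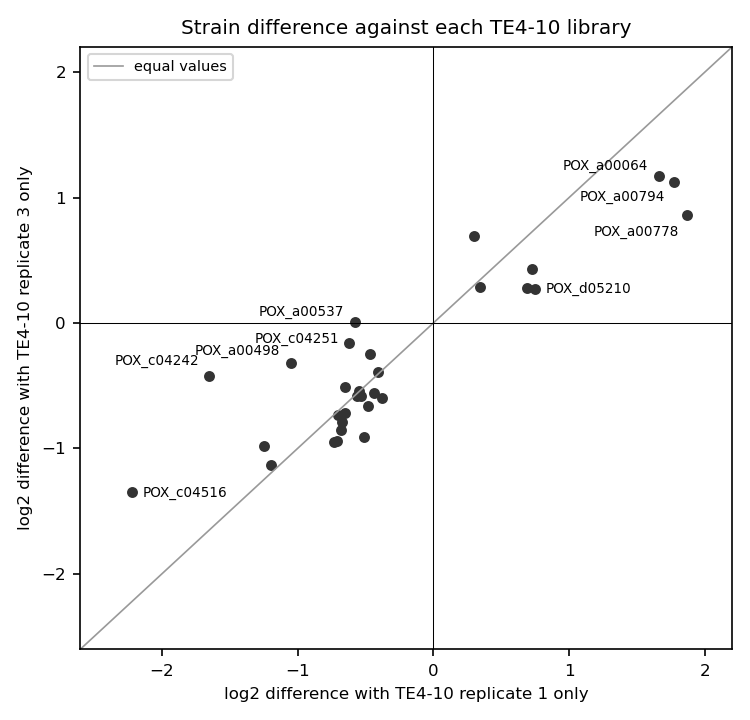
Log2 difference between the strains (rescaled FPKM + 1) of the 31 AA redox enzyme genes when TE4-10 is represented by replicate 1 only (x axis) or replicate 3 only (y axis), with names at genes whose values differ by more than 0.45. POX_c04242 moves from -1.65 to -0.42 and POX_a00778 from 1.87 to 0.86, while most genes lie near the line of equal values.

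The genes next to the 31 do not enter by the rule that chose the members, and they were tested. The window and the neighbours named were chosen after values had been seen, so the p-values of named neighbours are no independent evidence. The windows of 5 annotated genes on each side held 292 genes, of which 249 were tested, and limma called 23 higher and 28 lower in GXUR001 at an adjusted p under 0.05. That is 20.5%, against 17.8% of all genes. Around the 23 lower AA genes, 11 of 190 tested neighbours were called higher and 25 lower (13.2% lower, against 8.08% of all genes). Around the 8 higher AA genes, 12 of 59 were called higher and 3 lower (20.3% higher, against 9.74%). No test of these shares was made, and neighbours are not independent of each other. With 2 and 3 libraries, the number of calls varied with the libraries used. Without GXUR001 replicate 2 the fit called 2 neighbours, without GXUR001 replicates 1 and 3 it called 21 and 18, and without TE4-10 replicates 1 and 3 it called 36 and 63, against 51 with all.

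Around OxaD the 4 tested neighbours had negative log2 differences, none of them called. The TE4-10 libraries were far apart in POX_c04513, POX_c04514 and POX_c04517, and less so in POX_c04511. POX_c04511, at 2.70 and 1.74 against 2.55, 1.01 and 0.99, overlapped between the strains (-0.21 ± 0.39, limma adjusted p = 0.73). POX_c04514, named OxaF and so of the same alkaloid pathway by its name, had FPKM values of 16.0 and 3.67 in TE4-10 against 0.82, 0.85 and 1.63 in GXUR001. Its values did not overlap, and the log2 difference of -1.91 ± 0.55 was not called by limma (Benjamini-Hochberg adjusted p = 0.068). POX_c04513, at 28.8 and 4.26 against 1.24, 2.34 and 5.26, overlapped between the strains (adjusted p = 0.22 by limma). POX_c04515, a transporter of the major facilitator type by its annotation, was below the minimum mean FPKM, with 1.97 and 0.67 against 0.33, 0.29 and 0.18. In 9 of the 10 neighbours of OxaD, TE4-10 replicate 1 was above replicate 3. The median log2 difference of the 4 tested neighbours was -1.48, and that of the neighbours tested without TE4-10 replicate 1 was -0.37.

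A similar run surrounded POX_c04242 and POX_c04251, with POX_c04240, POX_c04241 and POX_c04253 called lower. POX_c04241 had FPKM values of 51.4 and 16.0 in TE4-10 against 2.76, 2.63 and 2.44 in GXUR001 (-2.81 ± 0.45, limma adjusted p = 0.019). POX_c04240 had 36.0 and 12.9 against 2.18, 2.11 and 2.18 (-2.61 ± 0.40, limma adjusted p = 0.017). POX_c04253, beyond POX_c04251, had 19.1 and 8.94 against 3.12, 2.73 and 2.82 (-1.63 ± 0.30, limma adjusted p = 0.026). GXUR001 was lower than both TE4-10 libraries in each of these, and TE4-10 replicate 1 was above replicate 3 in all 10 neighbours of POX_c04242. The run was not unbroken, since POX_c04252 next to POX_c04251 differed by 0.17 ± 0.21 (limma adjusted p = 0.60). Without GXUR001 replicate 2 the adjusted p of POX_c04240, POX_c04241 and POX_c04253 by limma was 0.082, 0.087 and 0.11, and they were not called without GXUR001 replicate 1 or 3 either.

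**Figure D5:**
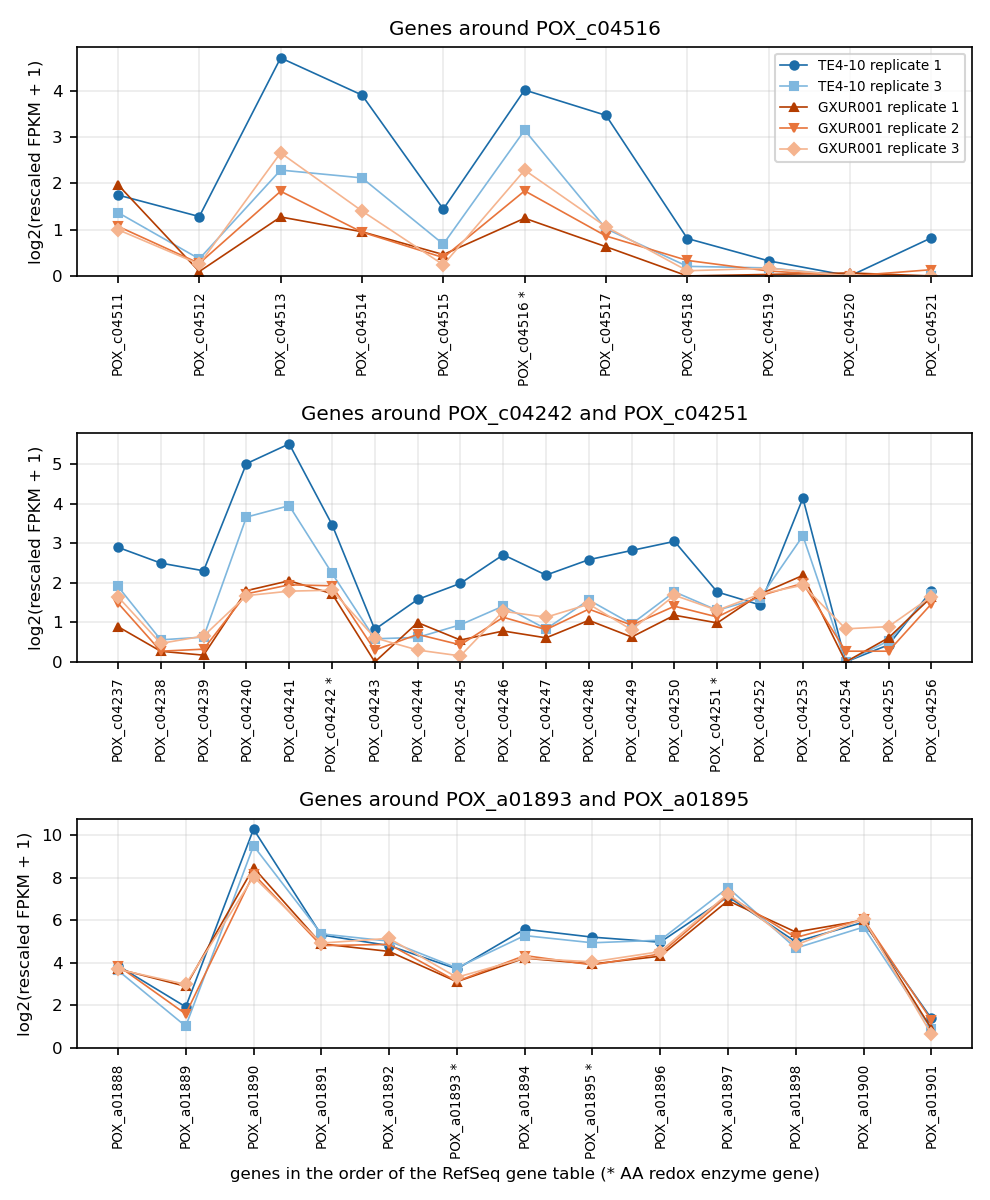
Log2(rescaled FPKM + 1) in each library of the genes around POX_c04516 (top), POX_c04242 and POX_c04251 (middle) and POX_a01893 and POX_a01895 (bottom), in gene order, with AA redox enzyme genes marked by an asterisk and lines joining the genes of a library. In the upper panels TE4-10 replicate 1 lies above replicate 3 at most genes, whereas in the lowest panel they lie closer together at most genes, and above GXUR001 at POX_a01894 and POX_a01895.

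The AA3 gene POX_a01893 and the AA3 and AA8 gene POX_a01895 lie on either side of POX_a01894, and 4 genes around them were called lower. POX_a01894 had FPKM values of 53.9 and 41.7 in TE4-10 against 15.5, 17.7 and 17.6 in GXUR001 (-1.17 ± 0.12, limma adjusted p = 0.0086). Its difference was close to that of POX_a01895 (-1.11), and the adjusted p without GXUR001 replicate 2 was 0.064 by limma. POX_a01890 was highly abundant, at 1434 and 799.8 against 312, 266 and 262 (-1.66 ± 0.26, limma adjusted p = 0.018, and 0.088 without GXUR001 replicate 2), and was not called without GXUR001 replicate 3 either. POX_a01891 (-0.46 ± 0.09) and POX_a01896 (-0.60 ± 0.11) had limma adjusted p of 0.027 and 0.023, and of 0.14 and 0.12 without GXUR001 replicate 2, and leaving out any of the 5 libraries ended both calls.

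Neighbours of other AA genes were of either direction. The lower gene POX_d04878 was next to POX_d04877, which was higher, with 33.7 and 44.4 in TE4-10 against 51.8, 65.8 and 72.6 in GXUR001 (0.96 ± 0.17, limma adjusted p = 0.024, and 0.11 without GXUR001 replicate 2). It was called only with all libraries or without TE4-10 replicate 3 among the fits that left out a library. On its other side POX_d04879 differed by 0.16 ± 0.20 (limma adjusted p = 0.60). POX_a00777, next to the higher AA7 gene POX_a00778, was higher too, with 2.85 and 4.17 against 7.99, 8.82 and 11.8 (1.45 ± 0.20, limma adjusted p = 0.014, and 0.081 without GXUR001 replicate 2).

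Some large calls near AA genes were not of the size of the AA gene itself. On the scale of log2(rescaled FPKM + 1), the largest difference was that of POX_c03497, 5 genes from POX_c03502 (-0.40). The TE4-10 libraries of POX_c03497 were far apart. It had 704 and 130 in TE4-10 against 7.01, 6.96 and 5.99 in GXUR001 (-5.05 ± 0.67, limma adjusted p = 0.012). POX_b02884, which lies 5 genes from the mutase gene POX_b02889 (-0.50), had 9.89 and 12.7 against 83.5, 77.8 and 68.9 (2.92 ± 0.18, limma adjusted p = 0.0044, and 0.047 without GXUR001 replicate 2). Near the AA1 gene POX_a00537, POX_a00541 had 19.4 and 28.9 in TE4-10 and was listed at 0 in all 3 GXUR001 libraries. Its log2 difference of -4.47 ± 0.26 (limma adjusted p = 0.0033) is bounded by the pseudocount, and it was -7.73 with a pseudocount of 0.1. Whether the gene is silent or its locus is altered in GXUR001 was not tested. The next gene, POX_a00542, was higher in GXUR001, with 13.5 and 14.5 against 46.8, 32.0 and 35.3 (1.63 ± 0.21, limma adjusted p = 0.012, and 0.064 without GXUR001 replicate 2).

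For 2 genes of lytic polysaccharide monooxygenases, which take electrons from some AA3 enzymes, values are given beside those of the 31 genes. Both were known from the study to differ, and they do not stand for their families. The AA9 gene POX_b02315 had FPKM values of 1817 and 1560.3 in TE4-10 against 1992, 2228 and 2599 in GXUR001, and the starch-active AA13 gene POX_g09282 had 27.3 and 36.3 against 95.9, 101 and 113. As a description, their log2 differences were 0.70 ± 0.12 (0.42 in FPKM as deposited) and 1.95 ± 0.15. The median of the 31 genes was -0.55, with 8 higher and 23 lower. Whether any of the 31 genes encodes an electron donor of these 2 enzymes was not tested.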

How the data were processed

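RNA was enriched for poly(A) tails and reverse transcribed with random primers, and an FPKM table for each of the 5 libraries used here was deposited by the authors. The submitters' processing notes name bcl2fastq and HISAT2. Reads were matched to the genome of *P. oxalicum* HP7-1, and the counting tool, annotation version and strand handling are not given in the sources used here. Reads of overlapping or near-identical genes could therefore have been shared, and 1337 rows lie outside the annotation. The authors' fold change and p columns were not used.

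The deposited FPKM were rescaled, rows whose mean FPKM reached 1 were kept, and log2(FPKM + 1) was compared by limma 3.58.1 (lmFit, eBayes with trend) in R 4.3.3, two-sided, with Benjamini-Hochberg adjustment over 9636 genes. Residual degrees of freedom were 3. No replicate block was used. P-values measure only the spread between these libraries. The code of the fit was run on simulated data, which does not bear on single calls. Gene order came from RefSeq (assembly ASM172317v3), in which all 31 genes matched. Its coordinates were not used. The annotated functions and families came from the study's gene list.

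The members and lists were chosen with earlier results of these data known. Genes given in full were the most abundant of each family, the 5 largest differences in each direction, those with TE4-10 libraries over 2 times apart, those annotated with another role, and 2 controls. Alternatives changed the scaling (none, or the upper quartile, percentile 75), the pseudocount (0.1), the filter (none, or a mean of 10) or the variance model (no trend), added the replicate number as a block, or left out each library in turn. Lists of AA relatives outside the gene list and of oxidant defence genes could not be built, the latter with 0 genes found. Python 3.11.15 and matplotlib 3.10.9 drew the figures.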

Additional observations from a re-analysis of the deposited data

How the results depend on the processing

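With FPKM as deposited, 2661 genes were called in place of 1718 (17.4% higher, against 54.7%), the median of the 31 AA genes was -0.80 in place of -0.55, and 72 neighbours were called in place of 51 (14 higher and 58 lower). Upper quartile scaling gave a median of -0.61 and 1848 calls (43.0% higher), and a pseudocount of 0.1 gave a median of -0.60. Leaving out 1 library gave between 17 calls (without GXUR001 replicate 2) and 1836, between 2 and 63 called neighbours, medians of the AA genes between -0.56 and -0.51, and between 29 and 31 AA genes without overlap. Without GXUR001 replicates 1 and 3 in turn, 539 and 549 genes and 21 and 18 neighbours were called, and without TE4-10 replicate 1, 1083 and 36. Of the AA genes, 30 of 31 kept their sign under the 11 alternatives run for them, and POX_a00537 was at 0.01 and -0.58 without TE4-10 replicates 1 and 3. As deposited, POX_c04252 was at -0.01, POX_d04879 at -0.12 and actin (POX_c04656) at -0.35. Without TE4-10 replicates 1 and 3, actin was at -0.20 and 0.04. The causes were not tested.

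Whether libraries with the same replicate number share a batch could not be decided. The correlations of the deviations between the strains were -0.007 for replicate 1 and 0.037 for replicate 3. The deviations of TE4-10 replicates 1 and 3 mirror each other, so these values rest on a single contrast between TE4-10 libraries. With the replicate number as a block, 0 genes and 0 neighbours were called by limma at an adjusted p, 2477 genes and 65 neighbours had an unadjusted p under 0.05, and the median of the AA genes was -0.56, with 1 residual degree of freedom. The alternatives for AA relatives and oxidant defence genes were not run, since no such genes could be listed. The files give depth only relative to other libraries, and without counts no counting error can be given for genes near 1 FPKM.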
